A study of Xenopus laevis with 9 samples.

Results

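The change in gene expression after 3 h with FICZ was measured in XLK-WG cells. The line comes from the kidney of Xenopus laevis, the African clawed frog. FICZ (6-formylindolo[3,2-b]carbazole) is a product of tryptophan that forms under light. The comparison set the 3 arrays titled FICZ, from cells given 100 nM FICZ, against the 3 arrays titled DMSO, from cells given the solvent dimethyl sulphoxide alone. Solvent was at 0.25% in both groups. These were 6 of the 9 arrays of the study. The other 3, from cells given 100 nM of the dioxin TCDD for the same time, entered the fit so that all groups shared 1 estimate of spread. Of 15491 probe sets other than controls, 11618 had a mean log2 signal of at least 4.88, the 25th percentile, and were tested. The labels call the replicates biological but do not say whether flasks were set up on separate days, and they name no genetic change in the cells. The DMSO titles carry a tag, CH, that the FICZ titles lack, and the FICZ arrays are numbered 1 to 3 in the titles but 3 to 5 in the descriptions. The comparison asks which transcripts a ligand formed from tryptophan moved within 3 h, in which functions, and from which starting levels.

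FICZ is a ligand of AHR, the aryl hydrocarbon receptor, which as a transcription factor waits in the cytoplasm with chaperones. Bound by a ligand, it enters the nucleus, pairs with ARNT and switches on genes that handle foreign aromatic compounds, first among them the cytochrome P450 gene cyp1a1, whose enzyme also breaks down FICZ. Many genes of this frog exist as a pair, from the long and the short chromosomes of its ancestral genomes, and the suffixes .L and .S name these copies. A probe set may take up transcript of the other copy, and the probe sequences were not used here.

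Values are log2 signals after quantile normalization. A probe set was called when its adjusted p lay under 0.05 by limma, with Benjamini-Hochberg adjustment over all 11618. Array by array, deposited medians lay between 6.67 and 6.87. There is no read depth on arrays, whose number sets the precision. The smallest p that an exact permutation test allows for 3 arrays against 3 is 0.1, so the calls rest on the spread shared across probe sets. Detection calls were not used, and whether a probe set lay above background is unknown. DMSO replicate 2 stood apart, with 22.6% of all variation within groups against 4.89% to 14.1% for the other arrays. The calls and several list results are given without it too, but single genes that were not called are not. Control probe sets were compared in the deposited values, not normalized further. All 18 for the bacterial hybridisation controls had positive differences between FICZ and DMSO, from 0.13 to 0.45 on the log2 scale. By limma, fitted and adjusted over the 120 control probe sets alone, 0 passed. Under an unadjusted p of 0.05 lay 16 of them, of which 11 were among the 18 hybridisation controls. The part of the controls in the results was not tested. Of markers named on the array, 6 of 9 for kidney epithelium lay above the filter (not cdh1, epcam and lhx1), as did 5 of 7 for mesenchyme, 3 of 6 for endothelium and blood and 4 of 9 for muscle and nerve. In RNA from whole cultures, more cells of a type and more RNA per cell cannot be told apart.

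In all, 61 probe sets (0.525% of those tested) rose with FICZ and 9 (0.0775%) fell, 70 (0.603%) together. Of these, 41 carried 1 gene symbol, 35 higher (0.472% of the 7408 named and tested) and 6 lower (0.081%), and they stand for 40 gene copies. In all 70 the 3 FICZ arrays lay on 1 side of the 3 DMSO arrays, as they also did, higher and lower, in 6.28% and 5.96% of all tested probe sets (6.76% and 5.68% of the named ones). Of the rises, 27 were of 2-fold or more, 23 of 1.5-fold to 2-fold and 11 smaller. Of the falls, 1 reached 2-fold, 2 lay from 1.5-fold to 2-fold and 6 were smaller. Leaving out 1 array gave from 24 rises and 2 falls, without FICZ replicate 1, to 80 rises and 10 falls, without DMSO replicate 2. The plot of the named calls shows the arrays one by one.

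**Figure D1:**
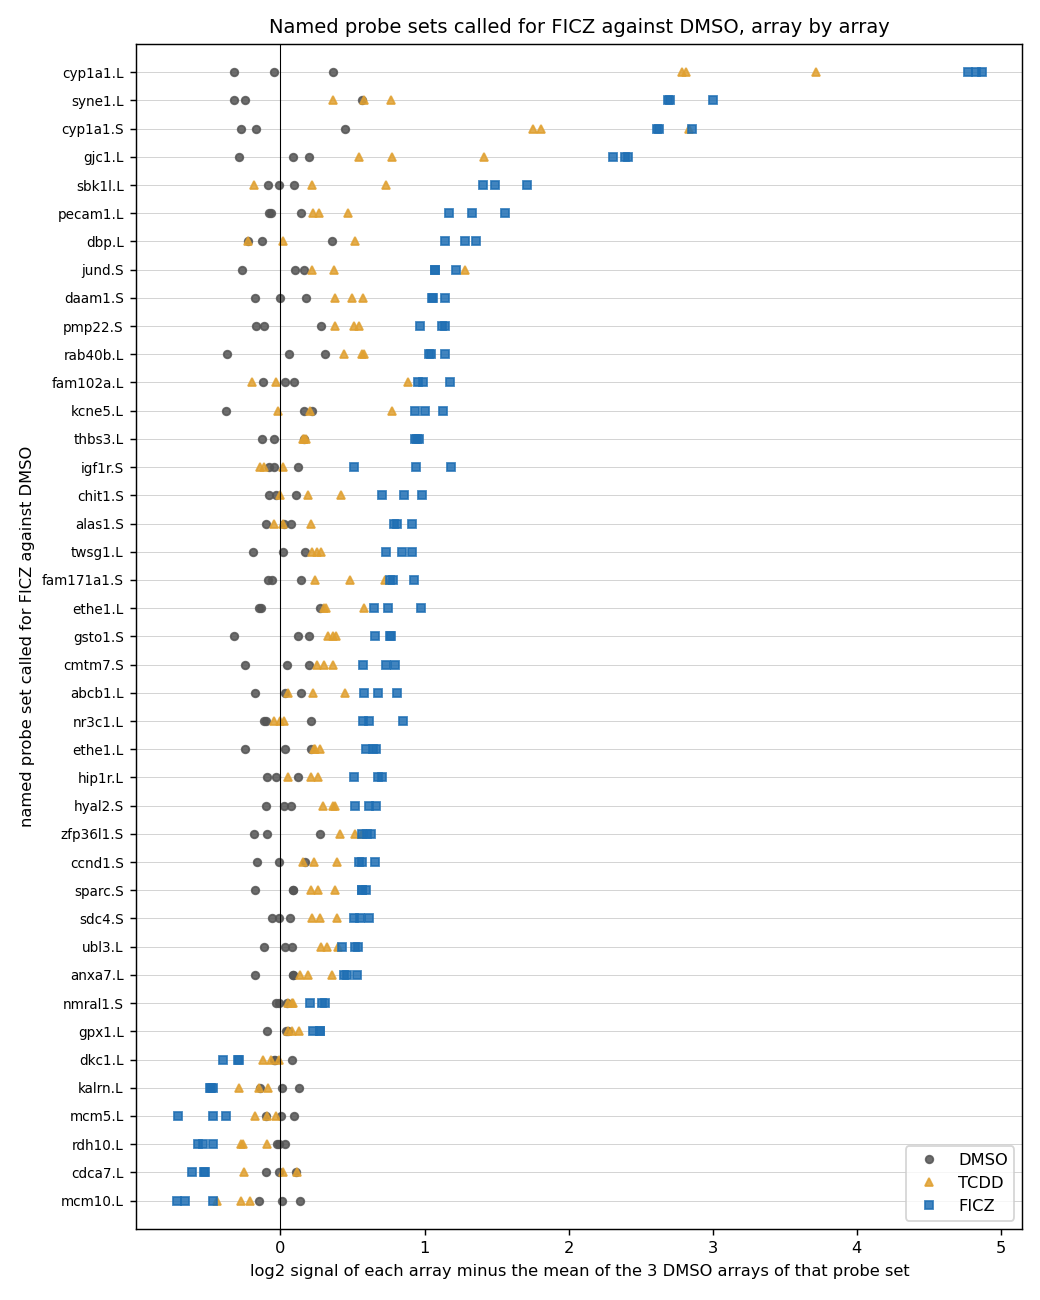
Log2 signal of each array minus the mean of the 3 DMSO arrays, for the 41 named probe sets called with FICZ, ordered by change. Circles are DMSO arrays, triangles TCDD arrays and squares FICZ arrays, 3 of each. The squares lie outside the range of the circles in every row, furthest for cyp1a1.L.

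Genes for the handling of foreign compounds and for heme are described first, though of these only the cyp1a1 pair was among the largest changes. For example, syne1.L (log2 change 2.80) and gjc1.L (2.37), given below, rose more than alas1.S, gsto1.S and abcb1.L. cyp1a1.L had log2 signals of 7.01, 6.32 and 6.60 with DMSO and 11.52, 11.47 and 11.41 with FICZ, and cyp1a1.S had 6.87, 6.14 and 6.25 with DMSO and 9.05, 9.28 and 9.03 with FICZ. The FICZ arrays of each copy were close together and far above DMSO (28.3-fold and 6.49-fold, adjusted p 3.2e-08 and 5.3e-05). alas1.S encodes the first enzyme of heme synthesis, and heme is the cofactor of every cytochrome P450. It read 9.59, 9.77 and 9.72 with DMSO and 10.50, 10.60 and 10.48 with FICZ, a tight separation from an already high signal (1.78-fold, log2 change 0.84, SE 0.09, adjusted p 0.00025). abcb1.L, the gene of an efflux pump for drugs, read 8.94, 9.05 and 8.73 with DMSO and 9.49, 9.71 and 9.58 with FICZ (1.61-fold, adjusted p 0.017). gsto1.S, a glutathione transferase gene, read 7.94, 7.42 and 7.87 with DMSO and 8.51, 8.502 and 8.40 with FICZ (1.65-fold, adjusted p 0.021). Neither gene had overlapping groups, and DMSO replicate 2 was the lowest array of gsto1.S. Of 54 probe sets of phase I enzymes, 2 rose, the cyp1a1 pair, and of 12 of phase II enzymes and efflux transporters 2 rose, abcb1.L and gsto1.S. Of 18 for heme synthesis and breakdown 1 rose, alas1.S. Of all named probe sets 0.472% rose. Next in order of p, and not past the threshold, were gstp1.L, a pi class glutathione transferase gene (0.62, adjusted p 0.10), the aldo-keto reductase gene akr1c2.L (0.58, adjusted p 0.27), the P450 gene cyp4b1.L (0.63, adjusted p 0.30), the heme oxygenase genes hmox1.L (0.56, adjusted p 0.26) and hmox1.S (0.29, adjusted p 0.40), and tpmt.L, a thiopurine methyltransferase gene (0.40, adjusted p 0.47), all as log2 changes. The median log2 change of the 12 phase II probe sets was 0.29, and 0.08 without DMSO replicate 2, beside 0.0082 for all named probe sets. When 1 array was left out, written as its group and replicate, these calls did not pass (highest adjusted p in brackets): abcb1.L (0.15) without FICZ 1, 2 or 3 or DMSO 1 or 3, and gsto1.S (0.14) without FICZ 1, 2 or 3.

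No change was detected in the receptor's own equipment, and AHR itself had no named probe set and was not analysed here. The 14 tested probe sets of AHR machinery had 0 called by limma and 0 with an unadjusted p under 0.05, against 4.01% higher and 3.06% lower among all named probe sets. Counts at this unadjusted threshold moved with the processing, over all named probe sets from 202 to 441 higher and from 151 to 414 lower. arnt.L, the partner of AHR, had a log2 change of 0.03, and ptges3.L, a cochaperone of the receptor complex, had -0.14 and -0.08 in its 2 probe sets. The others were hsp90ab1.S (0.06), e2f1.L (-0.19), crebbp.S (0.43), crebbp.L (0.06), kpna2.L (-0.13), kpna2.S (-0.03), cul4b.S (-0.16), ddb1.S (-0.17), xpo1.S (-0.10), ncoa3.S (-0.11) and ncoa2.S (-0.01). Their roles run from chaperone and nuclear import to coactivator and ubiquitin ligase. Of 11 probe sets of AHR target genes on the array, 7 lay above the filter and were tested. Among these, beside cyp1a1, slc7a5.L had the smallest p. It encodes a transporter of large neutral amino acids, known as an AHR target in mammals, and read 10.12, 10.19 and 10.07 with DMSO and 9.67, 9.77 and 9.74 with FICZ. The FICZ arrays lay below the DMSO arrays without overlap, yet the change of -0.40 did not pass (adjusted p 0.064). The aldehyde dehydrogenase gene aldh3a2.L (0.36 and 0.12 in 2 probe sets) and the glutathione transferase genes gsta1.L (0.32) and gsta1.S (0.26) had overlapping groups.

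Redox and sulphur metabolism held smaller changes. ethe1.L encodes a mitochondrial enzyme of hydrogen sulphide oxidation, and both of its called probe sets rose. The first read 9.04, 8.63 and 8.61 with DMSO and 9.50, 9.40 and 9.73 with FICZ (1.73-fold, adjusted p 0.014) and the second 9.28, 8.998 and 9.46 with DMSO and 9.84, 9.91 and 9.89 with FICZ (1.55-fold, adjusted p 0.014). A further ethe1.L probe set, 0.39 higher, also had non-overlapping arrays but did not pass (adjusted p 0.14). gpx1.L, the gene of a glutathione peroxidase, read 12.15, 12.01 and 12.14 with DMSO and 12.32, 12.38 and 12.38 with FICZ, a rise of 1.198-fold near the top of the signal range (adjusted p 0.035). nmral1.S, which encodes a sensor of NADPH, read 12.32, 12.24 and 12.26 with DMSO and 12.47, 12.58 and 12.55 with FICZ (1.203-fold, adjusted p 0.014). A second nmral1.S probe set had a log2 change of 0.17 with overlapping groups (adjusted p 0.40). Both groups were tight in the called probe sets of these last genes, so that small changes separated the arrays. Of 47 NRF2 and antioxidant probe sets gpx1.L alone was called, where 0.472% of all named probe sets rose and 0.081% fell. At an unadjusted p under 0.05 lay 6 higher and 1 lower (12.8% and 2.13%, against 4.01% and 3.06% of all named probe sets). Members next in order of p and not past the threshold were sqstm1.L, an autophagy receptor gene (0.51, adjusted p 0.19), and txnrd2.S, a mitochondrial thioredoxin reductase gene (0.27, adjusted p 0.35). The list median was 0.09 and 0.05 without DMSO replicate 2. With 1 array left out these calls ended, the ethe1.L probe sets in the order above: ethe1.L (0.10) without FICZ 1 or 3 or DMSO 3, ethe1.L (0.11) without FICZ 1, 2 or 3 or DMSO 1, gpx1.L (0.20) without FICZ 1, 2 or 3 or DMSO 1 or 3, and nmral1.S (0.12) without FICZ 2 or 3.

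Single genes of transcription factors and of signalling rose, while the medians of the lists they belong to lay between -0.06 and 0.03. dbp.L, which encodes a clock-controlled transcription factor, read 4.45, 5.03 and 4.54 with DMSO and 6.03, 5.95 and 5.82 with FICZ. The groups were well apart, but the DMSO and TCDD means, 4.67 and 4.78, lay under the filter level. dbp.L was thus tested only through its FICZ arrays, and the size of the rise (2.398-fold, log2 change 1.26, SE 0.24, adjusted p 0.027) is uncertain. jund.S, an AP-1 subunit gene, read 7.17, 6.81 and 7.23 with DMSO and 8.14, 8.14 and 8.29 with FICZ (2.17-fold, adjusted p 0.034). nr3c1.L, which encodes the receptor for glucocorticoids, read 7.47, 7.78 and 7.45 with DMSO and 8.18, 8.41 and 8.14 with FICZ (1.60-fold, adjusted p 0.023). Its other copy, nr3c1.S, had a log2 change of 0.70, adjusted p 0.28, with separated arrays and a larger error. zfp36l1.S, whose protein directs decay of mRNAs with AU-rich elements, read 8.71, 8.25 and 8.34 with DMSO and 9.06, 8.996 and 9.03 with FICZ (1.51-fold, adjusted p 0.041).

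igf1r.S, the gene of the insulin-like growth factor receptor, had 3 probe sets. The called one read 7.68, 7.89 and 7.72 with DMSO and 8.71, 8.95 and 8.27 with FICZ (1.84-fold, adjusted p 0.014), and the others had log2 changes of 1.098 and 0.95 at adjusted p values of 0.0503 and 0.073. All FICZ arrays stood above all DMSO arrays in each of the 3, and the called one is of a type that may bind several transcripts, as are those called for zfp36l1.S and kalrn.L. daam1.S encodes a formin of noncanonical Wnt signalling and of actin assembly and read 6.91, 6.73 and 6.56 with DMSO and 7.88, 7.80 and 7.79 with FICZ (2.12-fold, log2 change 1.09, SE 0.12, adjusted p 0.00038). twsg1.L encodes a secreted modulator of BMP known from frog embryos and read 6.51, 6.14 and 6.36 with DMSO and 7.18, 7.06 and 7.25 with FICZ (1.78-fold, adjusted p 0.0096). ccnd1.S, a cyclin gene of the G1 phase, read 8.13, 7.80 and 7.95 with DMSO and 8.62, 8.51 and 8.53 with FICZ (1.51-fold, adjusted p 0.035). Each of these had its lowest FICZ array above its highest DMSO array.

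By list, 2 of 66 immediate early and growth response probe sets rose (9 higher and 5 lower at an unadjusted p under 0.05, and 5 to 11 and 4 to 8 over all alternatives), 1 of 18 of the circadian clock, 1 of 57 of nuclear receptors and coregulators, 1 of 55 of insulin, growth factor and MAP kinase signalling, 1 of 56 of Wnt and Notch signalling and 1 of 35 of G1 and S cyclins, where 0.472% of all named probe sets rose. None of these lists had a called fall. The G1 and S cyclins had 1 higher and 3 lower at the unadjusted threshold (1 to 2 and 1 to 5 over all alternatives). Their median was -0.06, with 37.1% positive changes. The TGF-beta and BMP list did not hold twsg1.L. Of its 51 probe sets limma called 0, with 5 higher and 5 lower at an unadjusted p under 0.05 (3 to 7 and 4 to 9 over all alternatives). Not past the threshold were cebpd.S, a transcription factor gene (0.65, adjusted p 0.24), klf10.L (0.28, adjusted p 0.58), the retinoic acid receptor gene rara.L (0.34, adjusted p 0.39), the Notch ligand gene jag1.L (0.48, adjusted p 0.32) and pdgfra.L, a growth factor receptor gene (-0.59, adjusted p 0.18). With 1 array left out, the calls ended as follows: dbp.L (0.18) and nr3c1.L (0.18) without FICZ 1, 2 or 3 or DMSO 1 or 3, jund.S (0.18) without any 1 of the 6 arrays, zfp36l1.S (0.24) without FICZ 1, 2 or 3 or DMSO 2 or 3, igf1r.S (0.11) without FICZ 1 or 2 or DMSO 1 or 3, twsg1.L (0.086) without FICZ 1 or 3, and ccnd1.S (0.24) without FICZ 1, 2 or 3 or DMSO 3.

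Of the probe sets for junctions and connexins 3 of 45 rose, and of those for matrix and integrins 3 of 73. Of those for the nuclear envelope and pore 1 of 74 rose, beside 0.472% of all named probe sets. syne1.L, which encodes a giant protein that ties the nuclear envelope to actin, read 4.72, 5.54 and 4.65 with DMSO and 7.67, 7.97 and 7.66 with FICZ (6.96-fold, log2 change 2.80, SE 0.22, adjusted p 1.9e-05). gjc1.L, a connexin gene of gap junctions, read 6.60, 6.12 and 6.49 with DMSO and 8.80, 8.71 and 8.82 with FICZ (5.17-fold, log2 change 2.37, SE 0.19, adjusted p 2.1e-05). Both were far above DMSO in every FICZ array. The syne1.L fold starts from a signal next to the filter level, and a second gjc1.L probe set had a log2 change of 0.09 and overlapping groups. pecam1.L, an adhesion gene of endothelium, read 6.52, 6.54 and 6.74 with DMSO and 8.16, 7.77 and 7.93 with FICZ (2.55-fold, adjusted p 0.00010), and pmp22.S, the gene of a membrane protein of myelin and epithelial junctions, read 10.14, 10.54 and 10.09 with DMSO and 11.23, 11.40 and 11.38 with FICZ (2.11-fold, adjusted p 8.8e-05). Of the other endothelial and blood markers named on the array, ptprc, lcp1 and tek lay under the filter, and hba1.S and gata1.L had log2 changes of 0.49 and -0.13 that did not pass. Summed over the marker list, the linear signal was 244 to 284 with DMSO and 415 to 450 with FICZ. pecam1.L is in the sum, which is thus no measure separate from its rise. The part of such cells in the pecam1.L rise was not tested.

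thbs3.L, a thrombospondin gene of the matrix, read 8.65, 8.86 and 8.57 with DMSO and 9.63, 9.66 and 9.64 with FICZ (1.93-fold, log2 change 0.95, SE 0.10, adjusted p 0.00016). Its second probe set had a log2 change of 0.20 and did not separate. sparc.S, which encodes a collagen-binding matrix glycoprotein, read 9.99, 9.72 and 9.99 with DMSO and 10.49, 10.47 and 10.47 with FICZ (1.49-fold, adjusted p 0.0071), and sdc4.S, a cell surface proteoglycan gene, read 7.97, 7.89 and 7.85 with DMSO and 8.46, 8.42 and 8.52 with FICZ (1.47-fold, adjusted p 0.023). The FICZ arrays of all 3 genes lay close together, above every DMSO array. hyal2.S, a hyaluronidase gene, read 8.01, 7.88 and 8.05 with DMSO and 8.64, 8.4999 and 8.59 with FICZ (1.51-fold, adjusted p 0.014), and chit1.S, a chitinase gene, read 5.93, 5.75 and 5.80 with DMSO and 6.53, 6.81 and 6.69 with FICZ (1.80-fold, adjusted p 0.023). cmtm7.S, which encodes a membrane protein of the MARVEL family, read 8.16, 7.71 and 7.9998 with DMSO and 8.68, 8.53 and 8.75 with FICZ (1.62-fold, adjusted p 0.019).

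Among junctions and connexins 0 fell by limma, with 9 higher and 2 lower at an unadjusted p under 0.05 (20.0% and 4.44%). For all named probe sets these shares were 4.01% and 3.06%. Among matrix and integrins 0 fell, with 5 higher and 4 lower at the unadjusted threshold. Yet the list medians were -0.02 and -0.04, and most members of either list had negative changes. For junctions the counts ran from 5 to 9 higher and from 1 to 7 lower over all alternatives, with 6 higher without DMSO replicate 3, FICZ replicate 1 or FICZ replicate 2 and 7 lower with array weights. cgn.L, the gene of the tight junction protein cingulin, read 9.92, 10.52 and 9.74 with DMSO and 9.47, 9.31 and 9.30 with FICZ and had a change of -0.70 that did not pass (adjusted p 0.077), with DMSO replicate 2 the highest array. The integrin gene itga5.L had -0.51, adjusted p 0.12. Of 74 nuclear envelope and pore probe sets syne1.L alone was called. The rest leaned lower, with a list median of -0.08 and 22.97% positive changes, and without DMSO replicate 2 the median was -0.02 with 47.3% positive. Among them, and not past the threshold, were nup153.L (-0.41, adjusted p 0.28), of the nuclear pore, and sun2.L (-0.37, adjusted p 0.39), which encodes a partner of the syne1 protein. When 1 array was left out, calls ended for sparc.S (0.068) without FICZ 1 or 2, sdc4.S (0.15) and chit1.S (0.15) without FICZ 1, 2 or 3 or DMSO 1 or 3, hyal2.S (0.13) without FICZ 1, 2 or 3 or DMSO 1, and cmtm7.S (0.14) without FICZ 1, 2 or 3.

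Trafficking, membrane transport and the cytoskeleton had single members called. rab40b.L, the gene of a small GTPase that also recruits a ubiquitin ligase, read 6.21, 5.96 and 5.53 with DMSO and 7.05, 6.94 and 6.93 with FICZ (2.10-fold, adjusted p 0.0069). A second rab40b.L probe set had a log2 change of 0.36 and overlapped. hip1r.L, an endocytosis gene whose protein links clathrin to actin, read 6.68, 6.84 and 6.62 with DMSO and 7.42, 7.39 and 7.23 with FICZ (1.55-fold, adjusted p 0.035). kcne5.L, which encodes an accessory subunit of potassium channels, read 7.73, 7.14 and 7.68 with DMSO and 8.52, 8.65 and 8.45 with FICZ (2.03-fold, adjusted p 0.026). These 3 had no overlap between groups, and rab40b.L and kcne5.L each had 1 DMSO array well below the other two.

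kalrn.L fell. It read 10.56, 10.41 and 10.68 with DMSO and 10.08, 10.07 and 10.06 with FICZ, a fall by 0.48 on the log2 scale (SE 0.09, adjusted p 0.019). The FICZ arrays were almost identical to each other and below every DMSO array, and a second probe set had a change of -0.56 that did not pass (adjusted p 0.087). ubl3.L, the gene of a membrane-anchored ubiquitin-like protein, and anxa7.L, the gene of a calcium-dependent membrane-binding protein, rose (1.41-fold, adjusted p 0.026, and 1.39-fold, adjusted p 0.035). Of 264 Rab and vesicle trafficking probe sets 1 was called, a rise, where 0.472% of all named probe sets rose. At an unadjusted p under 0.05 lay 16 higher and 1 lower (6.06% and 0.379%, against 4.01% and 3.06% of all named probe sets). Without DMSO replicate 2 these were 13 and 7, without DMSO replicate 3 they were 19 and 7, without DMSO replicate 1 they were 17 and 5, and without 1 FICZ array 9 to 11 were higher and 1 to 3 lower. The sorting nexin genes snx18.L (0.71, adjusted p 0.064) and snx33.S (0.42, adjusted p 0.40) were among the higher ones that did not pass. Of 177 solute carriers, channels and pumps kcne5.L alone was called, with 11 higher and 10 lower at the unadjusted threshold (5 to 16 and 7 to 15 over all alternatives). Of those, slc20a1.L, a phosphate transporter gene, had -0.49, adjusted p 0.13. With 1 array left out, calls ended for rab40b.L (0.064) without FICZ 1, hip1r.L (0.24), kalrn.L (0.12) and ubl3.L (0.19) without FICZ 1, 2 or 3 or DMSO 1 or 3, kcne5.L (0.18) without FICZ 1, 2 or 3 or DMSO 2, and anxa7.L (0.24) without FICZ 1, 2 or 3 or DMSO 1.

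Of the called genes outside the function lists, 3 remain. sbk1l.L, a gene of a protein kinase family, read 6.53, 6.72 and 6.61 with DMSO and 8.03, 8.33 and 8.11 with FICZ (2.90-fold, adjusted p 0.00070), while 6 other tested probe sets with that symbol had log2 changes from -0.29 to 0.33 and overlapped. fam102a.L read 6.80, 6.74 and 6.58 with DMSO and 7.70, 7.89 and 7.66 with FICZ (2.06-fold, adjusted p 0.049), and fam171a1.S read 7.17, 7.37 and 7.14 with DMSO and 7.99, 8.15 and 8.01 with FICZ (1.77-fold, adjusted p 0.011). All 3 were higher in each FICZ array than in any DMSO array. In total 28 of the 41 named calls belonged to at least 1 of the 45 function lists and 13, for 12 gene copies, to none. With 1 array left out, calls ended for fam102a.L (0.27) without any 1 of the 6 arrays, and fam171a1.S (0.096) without FICZ 1, 2 or 3 or DMSO 1.

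Besides kalrn.L, the named falls were 3 genes of DNA replication, 1 of ribosome biogenesis and 1 of retinoid metabolism, and the other 3 of the 9 falls had no gene symbol. mcm10.L, which encodes an initiation factor of replication, read 7.93, 8.06 and 7.78 with DMSO and 7.20, 7.26 and 7.45 with FICZ and fell by 0.62 on the log2 scale (SE 0.12, adjusted p 0.039). mcm5.L, the gene of a subunit of the replicative helicase, read 9.57, 9.66 and 9.47 with DMSO and 9.19, 8.86 and 9.10 with FICZ and fell by 0.52 on the log2 scale (SE 0.11, adjusted p 0.041). cdca7.L, a gene of S phase chromatin, read 8.98, 9.18 and 9.07 with DMSO and 8.55, 8.55 and 8.46 with FICZ and fell by 0.56 on the log2 scale (SE 0.11, adjusted p 0.042). In each, the highest FICZ array lay below the lowest DMSO array. The next members of the list by p, which did not pass, were cdc6.L and cdc6.S, the genes of a loader of that helicase, and mcm2.L, another of its subunits. cdc6.L read 8.22, 7.95 and 8.02 with DMSO and 7.42, 7.66 and 7.41 with FICZ (-0.57, adjusted p 0.064), cdc6.S had -0.53 (0.080) and mcm2.L had -0.30 (0.091). Of 82 replication probe sets 3 were called lower, where 0.081% of all named probe sets fell. At an unadjusted p under 0.05 lay 14 lower and 1 higher (17.1% and 1.22%, against 3.06% and 4.01% of all named). The list median was -0.10 and 25.6% were positive, against 52.5% of all named probe sets and 49.5% of all tested. Without DMSO replicate 2 the counts were 15 and 0 and the median -0.11, and the lower count was least, 9, without FICZ replicate 2. The count of calls moved from 3 to 1 without DMSO replicate 2 or 3. Without DMSO replicate 3 the call left was mcm10.L. Without DMSO replicate 2 none of mcm10.L, mcm5.L and cdca7.L passed, and the 1 call was another probe set of the list. The count was 0 with the deposited values, with median centring, without the variance trend and with the 6 arrays alone. It was also 0 without DMSO replicate 1 or any FICZ array. Mitosis and chromosome segregation had 0 of 132 called by limma, 4 higher and 5 lower at the unadjusted threshold (1 to 7 in each direction over all alternatives) and a median of 0.0033.

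dkc1.L encodes dyskerin, which modifies ribosomal RNA and stabilises telomerase, and read 11.44, 11.44 and 11.56 with DMSO and 11.19, 11.18 and 11.08 with FICZ, a fall by 0.33 on the log2 scale (SE 0.06, adjusted p 0.032). Other dkc1.L probe sets had changes of -0.28, with separated arrays, and -0.09, with overlap. dkc1.L was the 1 called of 136 probe sets for ribosome biogenesis and the nucleolus, where 0.081% of all named probe sets fell. At an unadjusted p under 0.05 lay 18 lower and 1 higher (13.2% and 0.735%, against 3.06% and 4.01% of all named probe sets). The list median was -0.11, and 19.1% were positive. Members by p that did not pass were polr1b.L, an RNA polymerase I subunit gene (-0.47, adjusted p 0.19), utp25.S (-0.44, adjusted p 0.22) and ppan.S (-0.34, adjusted p 0.26), both of ribosomal RNA processing. Over all alternatives the list median stayed between -0.13 and -0.07 and the unadjusted count between 9 lower, with median centring, and 29 lower, without DMSO replicate 1. The ribosomal proteins themselves had a median of 0.01 over 91 probe sets, with 0 called by limma and 3 higher and 0 lower at the unadjusted threshold. rdh10.L, the gene of the enzyme that makes retinaldehyde from retinol, read 10.37, 10.36 and 10.41 with DMSO and 9.84, 9.81 and 9.91 with FICZ and fell by 0.53 on the log2 scale (SE 0.08, adjusted p 0.0069). Its arrays were tight in both groups, and the other copy, rdh10.S, had -0.26 with overlap. With 1 array left out, calls ended for mcm10.L (0.26) without FICZ 1, 2 or 3 or DMSO 1 or 2, mcm5.L (0.26) and cdca7.L (0.22) without any 1 of the 6 arrays, dkc1.L (0.18) without FICZ 1, 2 or 3 or DMSO 1 or 3, and rdh10.L (0.064) without FICZ 1 or 2.

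**Figure D2:**
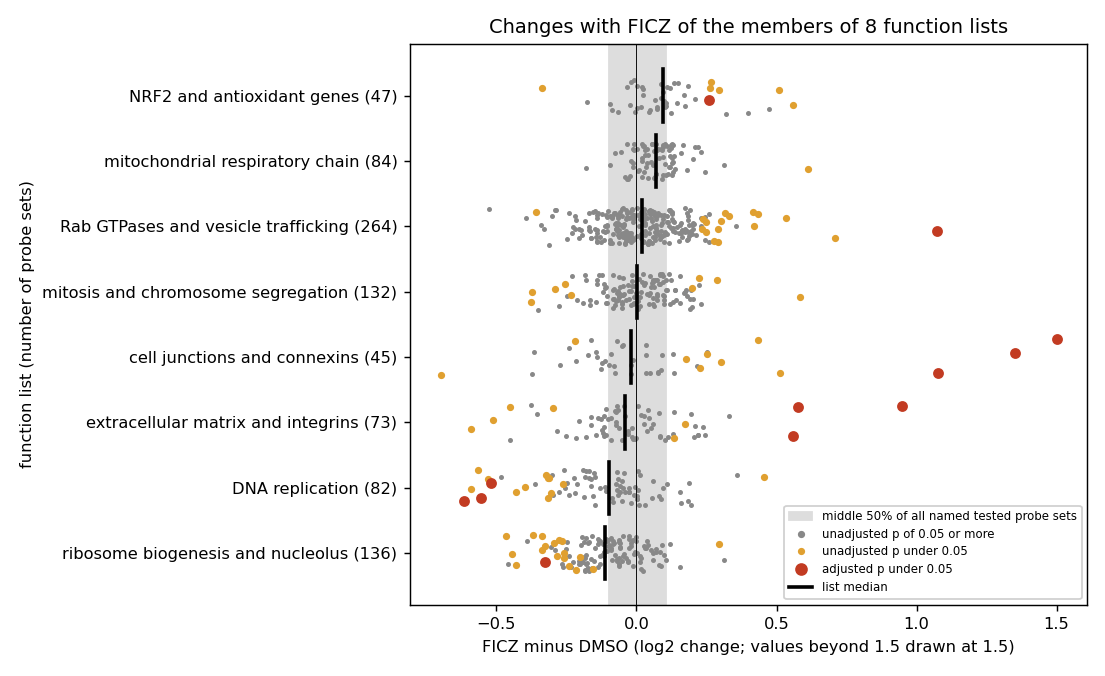
Log2 change of every tested probe set in 8 function lists, with the number of probe sets in brackets. Large points passed the adjusted threshold, medium points had an unadjusted p under 0.05, black bars are list medians and the grey band spans the middle 50% of all named probe sets. The points of DNA replication and of ribosome biogenesis lie mostly left of 0, whereas junctions and matrix hold a few large rises around medians near 0.

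Probe sets just short of the threshold extended both directions. From an adjusted p of 0.05 to 0.10 lay 21 higher (0.181% of all tested) and 13 lower (0.112%), none of which is called here. errfi1.L, the gene of a feedback inhibitor of the EGF receptor, read 8.45, 9.43 and 8.82 with DMSO and 7.94, 7.83 and 8.16 with FICZ and had a change of -0.92 (adjusted p 0.051), with DMSO replicate 2 the highest array. gata5.S, a transcription factor gene of endoderm and heart, read 5.35, 5.02 and 4.69 with DMSO and 5.95, 5.82 and 6.19 with FICZ (0.97, 0.066). The groups of both genes did not overlap, though their DMSO arrays were widely spread. Signalling and nuclear genes here were tgfbr1.S, a TGF-beta receptor gene (0.53, 0.067), rxra.L, the gene of a partner of many nuclear receptors (0.59, 0.073), and ctdspl.S, a phosphatase gene (0.58, 0.064). Membrane and trafficking genes were the tetraspanin gene cd82.L (0.55, 0.051), the sorting gene pacs2.L (0.61, 0.051), the sorting nexin gene snx18.L (0.71, 0.064) and arl2bp.L, whose protein binds the small GTPase ARL2 (0.44, 0.079). Others were capn1.L, a calcium-activated protease gene (0.33, 0.062), ism1.L, which encodes a secreted protein (0.48, 0.085), and rcbtb1.L (0.46, 0.051). Of the lower ones, slc7a5.L, cgn.L, cdc6 and mcm2.L are given above.

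At an unadjusted p under 0.05 there were 444 higher (3.82%) and 414 lower (3.56%) probe sets. By function these smaller changes were uneven, as the plot of list shares shows. The hypoxia response had 9 higher and 1 lower of 38 (23.7% and 2.63%) with 0 called by limma, and 6 higher without FICZ replicate 1 or 3. Its members included higd1a.L, a mitochondrial protein gene (0.26, adjusted p 0.13), and the prolyl hydroxylase genes egln3.L (0.44, adjusted p 0.16) and egln3.S (0.83, adjusted p 0.26), of which the last starts under the filter level. Of all named probe sets 4.01% were higher and 3.06% lower. Chromatin and histone modifiers had 0 higher and 7 lower of 137 (5.11% lower), among them the Polycomb gene suz12 (-0.44, adjusted p 0.30) and the remodeller gene chd4.L (-0.57, adjusted p 0.31). Translation factors had 0 and 5 of 95 (5.26% lower), such as eif3a.L (-0.25, adjusted p 0.29). Heat shock and cytosolic chaperones had 0 and 2 of 53, hsf2.L (-0.38, adjusted p 0.33) and hsph1.L (-0.34, adjusted p 0.35). Their lower share, 3.77%, was near that of all named probe sets. Amino acid transport and tRNA charging had 1 and 3 of 50 (2% and 6%). In each of these lists limma called 0, and with 1 array left out the lower counts ran from 4 to 7 for chromatin and from 2, without FICZ replicate 3, to 11, without DMSO replicate 1, for translation factors.

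**Figure D3:**
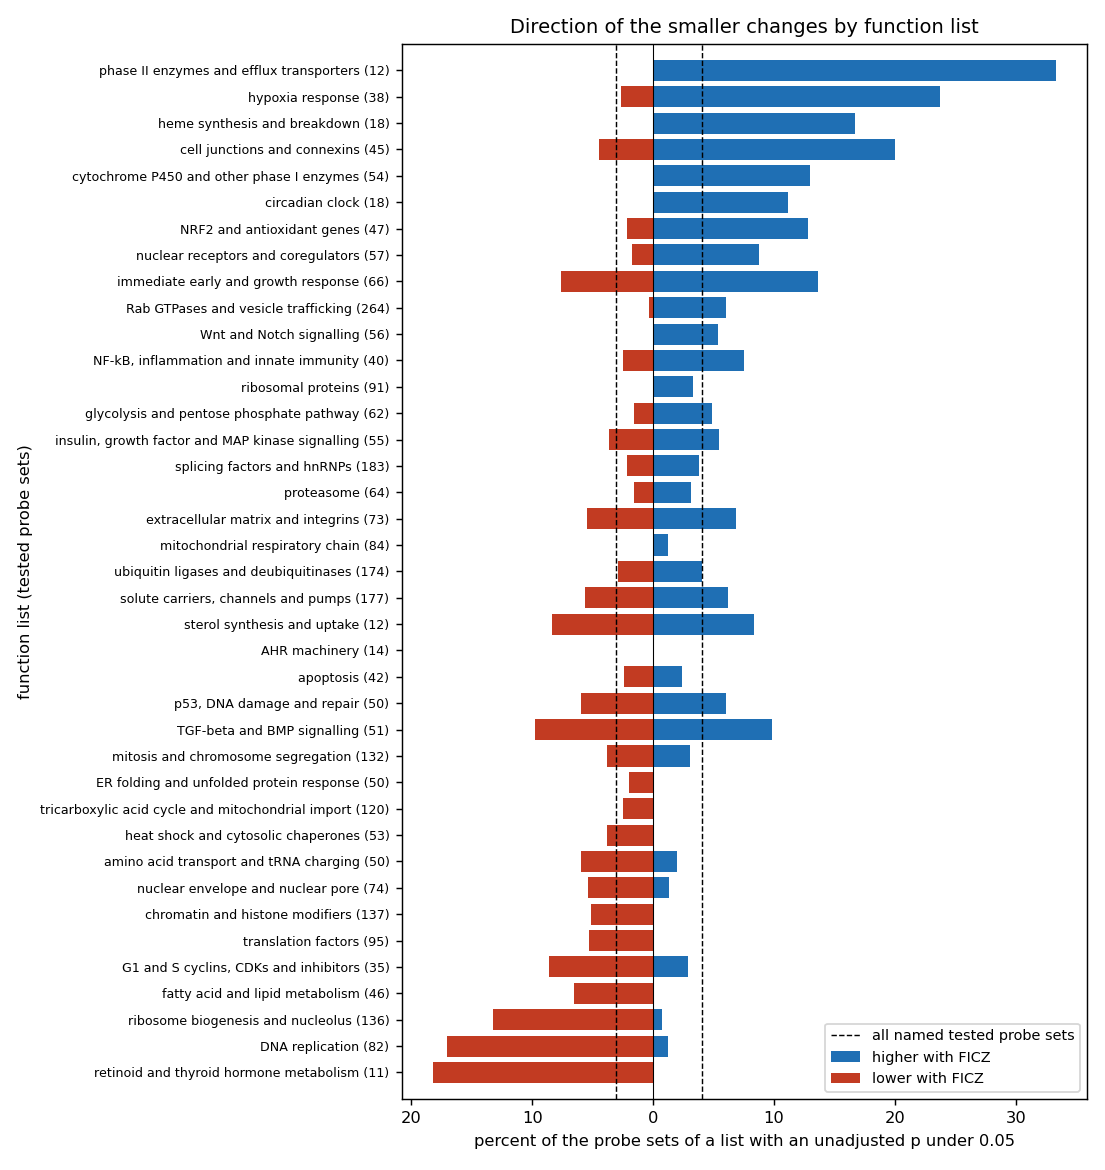
Percent of the tested probe sets of the function lists of 10 or more, 1 list left out, that had an unadjusted p under 0.05, higher with FICZ to the right and lower to the left, with the number tested in brackets. Dashed lines mark the shares among all named probe sets, 4.01% higher and 3.06% lower. Phase II enzymes, the hypoxia response and junctions reach furthest right, and retinoid metabolism, DNA replication and ribosome biogenesis furthest left.

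The remaining lists held few or no calls. The counts of higher and lower probe sets that follow are not calls but those at an unadjusted p under 0.05. At that threshold 4.01% of all named probe sets were higher and 3.06% lower. Splicing factors had 7 higher and 4 lower of 183 (3 to 12 and 0 to 6 over all alternatives), ubiquitin ligases and deubiquitinases 7 and 5 of 174 (5 to 13 and 2 to 9), with rab40b.L called, the proteasome 2 and 1 of 64, glycolysis and the pentose phosphate pathway 3 and 1 of 62, and apoptosis 1 and 1 of 42. p53 and DNA damage had 3 and 3 of 50, and NF-kB and innate immunity 3 and 1 of 40, with socs3.L, a cytokine feedback gene, at 0.96, adjusted p 0.46. Sterol synthesis had 1 and 1 of 12, fatty acid metabolism 0 and 3 of 46, and folding in the endoplasmic reticulum 0 and 1 of 50. The mitochondrial respiratory chain had 1 higher and 0 lower of 84 (1 to 10 higher over all alternatives), ndufs4.S (0.61, adjusted p 0.23), with 82.1% positive changes and a median of 0.07. Without DMSO replicate 2 the share was 51.2% and the median 0.0034, so the lean of that list went with this 1 array. The 9 tested mesenchymal probe sets were all on the lower side (median -0.12) and the 8 of kidney epithelium had a median of -0.06, with 0 called by limma in either and 1 lower, pdgfra.L, at the unadjusted threshold.

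The .L and .S copies moved unequally in a small set of genes, most of them genes with a called copy. Both copies of 762 genes had a tested probe set, and of these 1524 probe sets 16 (1.05%) were called. In 15 pairs at least 1 copy was called: both in 1 pair, cyp1a1, the .L copy alone in 6 and the .S copy alone in 8. The change of 1 copy differed from that of the other in 10 pairs (1.31%) by limma on the per-array difference, 9 of them among those 15, with the larger change in the .S copy in 8 and in the .L copy in 2. Calls and differences came from the same arrays, so the overlap between them is partly built in. For cyp1a1 the .L copy rose by 2.12 more on the log2 scale (SE 0.11, adjusted p 2.3e-06). For pmp22 the .L copy read 11.66, 11.88 and 11.56 with DMSO and 11.94, 11.88 and 11.82 with FICZ, overlapping, beside the rise of pmp22.S, a difference of -0.90 (SE 0.10, adjusted p 0.0017).

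sparc.L read 10.68, 10.51 and 10.85 with DMSO and 10.54, 10.44 and 10.57 with FICZ, overlapping, while sparc.S rose (difference -0.74, adjusted p 0.0017). ccnd1.L read 10.15, 9.82 and 10 with DMSO and 9.86, 9.94 and 9.88 with FICZ, overlapping, while ccnd1.S rose (difference -0.68, adjusted p 0.0040). fam171a1.L read 7.08, 7.33 and 7.09 with DMSO and 7.22, 7.41 and 7.11 with FICZ (difference -0.74, adjusted p 0.0029). In these 3 pairs the .L copy had no separation between groups. gata5 differed (-1.20, adjusted p 0.0056) although neither copy was called, as gata5.L had -0.24 and gata5.S 0.97, both from signals near the filter level. The remaining pairs were cmtm7 (-0.89, adjusted p 0.013), hyal2 (-0.51, 0.013), sdc4 (-0.60, 0.016) and twsg1 (1.03, 0.023).

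In 6 pairs 1 copy was called but the copies were not shown to differ. For nr3c1 the changes were almost equal (0.68 and 0.70, difference SE 0.26). For mcm5 they were -0.52 and -0.31 (adjusted p of the difference 0.36), for rdh10 -0.53 and -0.26 (0.67), for gpx1 0.26 and 0.11 (0.77), for alas1 0.26 and 0.84 (0.14) and for anxa7 0.48 and 0.05 (0.39). The probe sets of anxa7.S disagreed, since the others had log2 changes of 0.47 (adjusted p 0.56) and -0.08, all 3 with overlapping groups. Over all 762 pairs both changes had the same sign in 63.5%, and the changes correlated with r = 0.52, or 0.30 without cyp1a1, as a description of pairs that share the same 6 arrays. All 6 named falls were .L copies and 0 were .S copies, whereas the named rises were 19 .L and 16 .S, from 4161 .L and 3022 .S probe sets tested. With 1 array left out, the call of a difference ended for cmtm7 without FICZ 1 or 3 or DMSO 3, for hyal2 without FICZ 1 or 3, for sdc4 without FICZ 1, 2 or 3 or DMSO 3, and for twsg1 without FICZ 1 or 3 or DMSO 1, 2 or 3, and 6 pairs passed without FICZ 1. Over all alternatives the adjusted p of these 4 reached 0.078, 0.088, 0.093 and 0.15 in that order, and the other 6 pairs passed wherever they were tested.

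**Figure D4:**
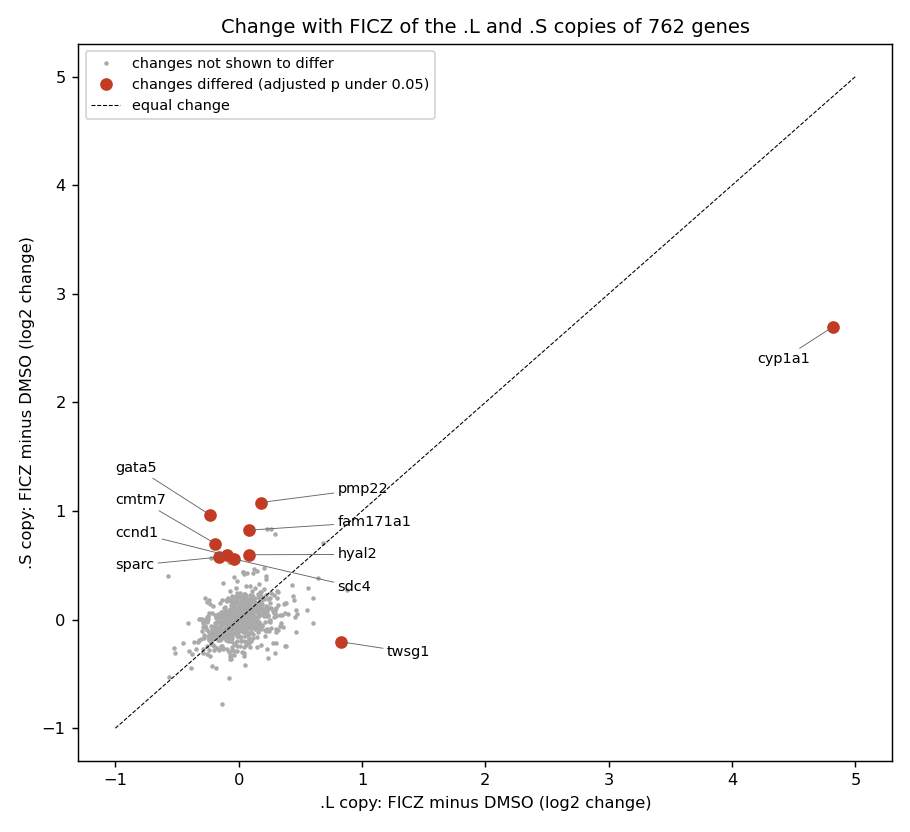
Log2 change with FICZ of the .S copy against that of the .L copy for 762 genes with a tested probe set of each. The 10 labelled pairs differed by limma on the per-array difference, 8 of them above the dashed line of equal change and 2, cyp1a1 and twsg1, below it.

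The starting signals of rises and falls overlapped. A signal depends on the probes as well as on the transcript, so a level is used here only to sort probe sets. The called rises had DMSO means from 4.47 to 12.27, with a median of 7.48. The 9 falls had DMSO means from 7.92 to 12.21, with a median of 9.57, and the difference was not tested. A DMSO mean is also part of the change, so low starts for rises and high starts for falls are partly built in. The filter used the mean over all arrays, so a probe set such as dbp.L could be tested through its FICZ arrays alone. With the tested probe sets split into 4 equal bins by their mean over all arrays (4.88 to 6.34, 6.34 to 7.66, 7.66 to 9.03 and 9.03 to 13.51), the bins held 10, 16, 22 and 13 called rises and 0, 1, 3 and 5 called falls. Changes of 2-fold or more numbered 8, 11, 7 and 2. The median SE was 0.21 in the lowest bin and 0.15, 0.12 and 0.096 above it. The smallest change called was 1.78-fold, 1.53-fold, 1.396-fold and 1.198-fold. Changes under 1.5-fold, such as those of nmral1.S and gpx1.L, were called only in the upper 2 bins. The power to detect a change of a given size was not tested by bin. Bins by DMSO mean held 15, 19, 18 and 9 rises and 0, 0, 3 and 6 falls. Bins by the mean of the TCDD arrays, which belong to neither group, held 12, 16, 21 and 12 rises and 0, 1, 2 and 6 falls. Under the filter lay 3873 probe sets, of which 1, without a gene name, passed when no filter was set, with a DMSO mean of 3.85 and a FICZ mean of 5.21.

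**Figure D5:**
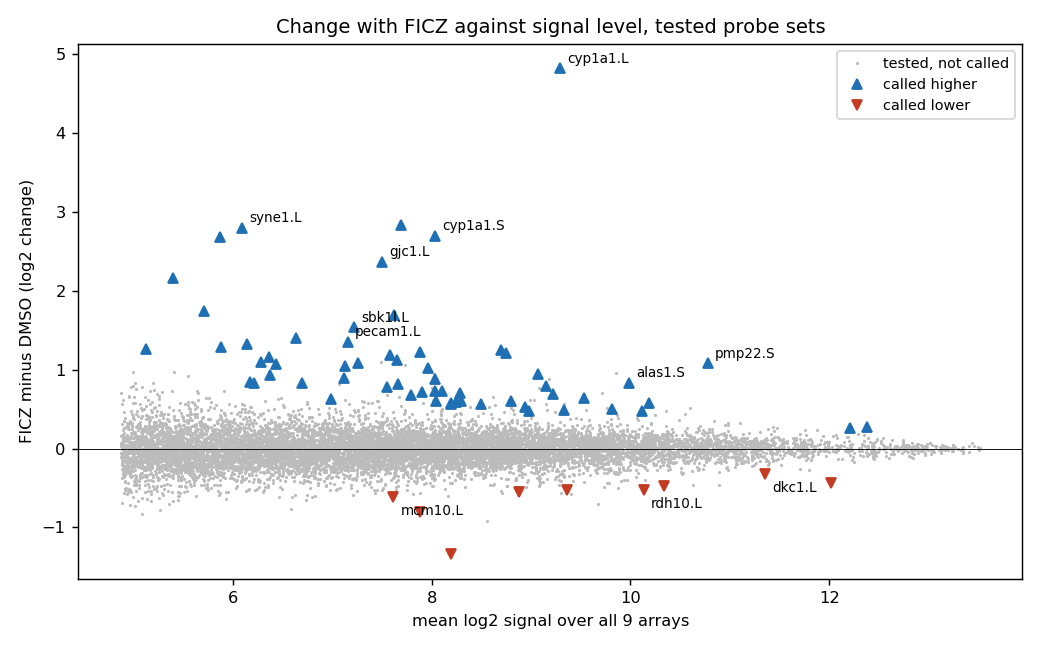
Log2 change with FICZ against the mean log2 signal over all 9 arrays for the 11618 tested probe sets, with called rises as upward and called falls as downward triangles and some genes named. The cloud of uncalled points narrows to the right, called falls are absent under 7, and the smallest called rises lie near 12.

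Among the 29 called probe sets without a single gene symbol, 26 rose and 3 fell. The pair with the largest rises read 6.64, 6.60 and 5.71 with DMSO and 9.16, 9.21 and 9.07 with FICZ (7.13-fold), and 4.58, 5.21 and 5.04 with DMSO and 7.37, 7.65 and 7.87 with FICZ (6.43-fold). Each had no overlap, and these folds are near those of syne1.L and cyp1a1.S. The largest fall of all, from 8.92, 8.43 and 8.80 with DMSO to 7.27, 7.31 and 7.55 with FICZ, also had no gene name here (-1.34, adjusted p 0.00088).

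TCDD at the same dose and time is set beside FICZ without a comparison of the responses, since both share the DMSO arrays. Signals with FICZ and with TCDD differed by limma in 10 of the 41 named calls (24 of all tested probe sets, 0.207%) and were not shown to differ in 31. The 10 were alas1.S, cyp1a1.L, gjc1.L, igf1r.S, nr3c1.L, pecam1.L, pmp22.S, sbk1l.L, syne1.L and thbs3.L, all higher with FICZ. The 41 calls were chosen by their change in these same FICZ arrays, which tilts the count and the direction among them. With TCDD, thbs3.L read 8.85, 8.86 and 8.88, below every FICZ array with a mean difference of 0.78 (95% confidence interval 0.57 to 0.99), and nr3c1.L read 7.56, 7.52 and 7.59, inside the DMSO range. zfp36l1.S read 8.997, 8.85 and 8.95 with TCDD, close to its FICZ arrays, with a difference of 0.10 (95% confidence interval -0.16 to 0.36). For ubl3.L, with 9.46, 9.38 and 9.34, the difference was 0.16 (95% confidence interval -0.04 to 0.36). Among the 41 named calls only zfp36l1.S and ubl3.L had an interval that included 0, and the intervals are not adjusted for the number of tests. daam1.S, also not shown to differ, had 0.60 (95% confidence interval 0.33 to 0.87, adjusted p 0.096 by limma). Calls not shown to differ are thus not shown to be alike. The 6 named falls were not shown to differ either after adjustment. The difference furthest from 0 among them was that of cdca7.L, -0.52 (95% confidence interval -0.76 to -0.28), with an adjusted p of 0.13.

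Of the 41 named calls, 10 passed under every alternative that could be run, 16 or, for syne1.L, 15. They were alas1.S, both cyp1a1 copies, daam1.S, gjc1.L, pecam1.L, pmp22.S, sbk1l.L, syne1.L and thbs3.L. The other 31 did not pass when at least 1 array was left out, and 22 named calls did not pass without the variance trend, 15 with the 6 arrays alone and 12 with the deposited values. No named change turned in sign under any alternative run. Leaving out 1 array could not turn a sign, since the FICZ and DMSO arrays of every call did not overlap.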

How the data were processed

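Total RNA from 9 cultures was hybridised to 9 Affymetrix Xenopus arrays, as 3 biological replicates per group per the labels. The deposited values came from GCOS, the scanner maker's software, per the submitters' processing notes, whose algorithm and scaling step those notes, as used here, do not give. Deposited signals were read as log2, since the highest, 13.627, equals 12651 on a linear scale. FICZ arrays were numbered by their titles.

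Of 15611 probe sets, 120 controls were set aside. Of the other 15491, the platform annotation gives a single gene symbol for 9304, more than 1 for 195 and none for 5992. Of the first, 9227 matched a RefSeq gene table of Xenopus laevis and 2 symbols were updated. Positions and sequences were not used here. Values were quantile normalized, and probe sets under the 25th percentile of the mean were left out. All 9 arrays were fitted with 1 mean per group in limma 3.58.1 (R 4.3.3), by lmFit and by eBayes with trend=TRUE. Degrees of freedom were 6 residual and 7.82 prior. Its p-values are two-sided and adjusted by Benjamini-Hochberg. They weigh a change against the spread between arrays within the 3 groups, an estimate partly shared across probe sets (median SD within groups 0.17, median SE of the change 0.14). Copy pairs used 1 probe set per copy, that with the highest mean, and the difference .L minus .S on each array.

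The comparison, its members and the 45 gene lists were chosen with earlier results of these data known, and some wrongly assigned members were taken off the lists after values were seen. Lists are described by counts and medians beside all named probe sets. The counts of 1 list are not reported here. Every call with 1 symbol is named, those of at least 1.5-fold with their arrays. Beyond these the text names up to 20 with an adjusted p from 0.05 to 0.10 and up to 4 members per list by smallest p. It also names all tested members of the AHR lists, and other copies and probe sets of called genes. Differing pairs and the probe sets without a symbol that changed most are given too. Alternatives concerned normalization, filter, variance prior, arrays in the fit, array weights, replicate block and each array left out. Tables were made with pandas 2.3.3 and numpy 2.4.6 in Python 3.11.15 and figures with matplotlib 3.10.9. The fit was tested on simulated data.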

Additional observations from a re-analysis of the deposited data

How the results depend on the processing

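The main counts were 61 rises, 9 falls and 10 differing copy pairs. Rises numbered 38 without the variance trend and 114 with array weights, which gave DMSO replicate 2 a weight of 0.18. Falls numbered 4 with the deposited values, 4 with median centring, 4 with the FICZ and DMSO arrays alone, 2 without the variance trend and 40 with array weights. Leaving out 1 array gave 24 to 80 rises, 2 to 10 falls and 6 to 11 pairs. With no prior shared across probe sets, 4 probe sets passed and 883 had an unadjusted p under 0.05. Why the counts moved was not tested. Same-numbered FICZ and DMSO arrays, by their titles, had deviations that correlated with r of -0.14, -0.01 and -0.05, and DMSO and TCDD arrays with r of 0.48, 0.27 and -0.004. Not every pair passed 0.1, so the numbers were not taken to pair the samples, but since FICZ numbers differ between titles and descriptions this does not settle pairing. With the replicate number as a block there were 75 rises, 13 falls and 12 pairs. Of the values of named calls under the alternatives, 463 stayed past the threshold, 188 did not and 0 changed sign. With groups that did not overlap in any call, leaving out 1 array could not change a sign. Of the list medians, 666 moved by less than 1 SD and 53 by more. Dim probe sets had larger errors.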
